A study of Homo sapiens with 10 samples.

Results

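The genes of the proteasome were compared between proliferating and replicatively senescent IMR90 cells. IMR90 is an untransformed line of human fibroblasts established from the lung of a fetus. Members were chosen by symbol: every gene called PSMA, PSMB, PSMC, PSMD, PSME, PSMF or PSMG with digits after it, except the immunoproteasome genes PSMB8 and PSMB9. The rule uses no measured value, but it was set with earlier results of these data known. It found 40 of the 19775 genes that had a probe set with a single symbol, measured by 79 of 41091 such probe sets. Another 8 symbols start alike but name no subunit, such as PSMC3IP, and were left out. PSMA6 and PSME2 had only probe sets with several symbols and, like PSMB11, PSMC5, PSMD7 and PSMD13, were not analysed here.

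Proliferating cells were at 28 population doublings and senescent cells at 90, with 5 arrays in each group. Both groups were grown at 3% oxygen in DMEM with 10% FBS, and cells of the senescent group were serially passaged until growth arrest and kept in the dish for another 2 weeks. The labels name no knockdown, transgene or drug in either group, so passage history and growth state differ together, and both groups come from a single line. Total RNA was hybridised to Affymetrix arrays on which a gene is read by one or more probe sets, and each value below is a deposited log2 value. Whether replicate arrays stand for separate cultures is not given in the labels, so the p-values measure the spread between these arrays, which may be technical.

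Array medians lay between 3.05 and 3.12, and the number of arrays limits the precision. The 2 groups separated along a first principal component with 89.9% of the variance, while proliferating 2 and senescent 5 lay at the low end of the second, which held 2.18%. The ACTB control probe sets, whose 3′ minus 5′ difference grows as RNA degrades, differed by 2.07 ± 0.14 (SD, n = 5) in proliferating and 2.32 ± 0.10 (SD, n = 5) in senescent cells, and the exact permutation test gave p = 0.00794, its smallest possible value for 5 against 5 arrays. The 3′ minus 5′ difference of the GAPDH control probe sets was 0.15 larger in senescent cells, with overlap between the groups (exact permutation p = 0.13). Of the fibroblast markers, 12 of 12 lay above the 60th percentile on all arrays, with 2 called higher and 5 lower in senescent cells. Of markers of other cells, 1 of 8 epithelial genes (KRT18), 1 of 7 endothelial genes (TEK) and 0 of the 5 leukocyte genes on the array did so, as did 4 of 5 smooth muscle genes. The 3 epithelial markers tested were all lower in senescent cells (EPCAM by -2.31, KRT19 by -1.26 and KRT18 by -0.46). TEK differed by 0.62, and of the smooth muscle genes ACTG2 was higher (0.53) and MYH11 lower (-0.72). Averaged over all listed genes, most of them untested at low values, epithelial markers ranged from 4.13 to 4.22 on proliferating and from 3.56 to 3.77 on senescent arrays, and leukocyte markers from 2.35 to 2.38 and from 2.36 to 2.43. The part of these differences in the results below was not tested. Values with the ACTB control in the fit or without an array are given for some genes. That control did not overlap between the groups, reaching 2.19 on proliferating arrays and starting at 2.24 on senescent ones. A fit with it therefore separates the control from the group poorly. With it 49.4% of all genes tested were called, against 61.3% without it. In bulk RNA, fewer cells expressing a gene and less RNA of it per cell cannot be told apart.

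The proteasome degrades proteins that carry ubiquitin chains. Its barrel-shaped 20S core is a stack of rings of alpha subunits, which gate the entry, and beta subunits, some of which hold the proteolytic sites. The 19S cap binds ubiquitin chains, removes them, unfolds the substrate with a ring of ATPases and feeds it into the core, while other activators open the core without ATP, and dedicated chaperones assemble core and cap. When proteasome activity is short, the transcription factor NRF1 (gene NFE2L1) raises many of these genes together through antioxidant response elements in their promoters. Loss of protein quality control has been studied as a feature of ageing and senescent fibroblasts.

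On the probe set with the highest mean for each gene, most proteasome genes differed little between the groups. The largest differences there were falls in core assembly chaperones and in 1 ATPase of the cap. Further probe sets were called higher at 0.80 for PSMD9, 0.70 and 0.66 for PSMC2 and 0.68 for PSMA5. The largest fall of a further probe set was -0.42, for PSMA7. Of 38 genes that passed the filter on low values, 6 were higher and 10 lower in senescent cells at an adjusted p under 0.05 (limma, Benjamini-Hochberg over 12909 genes), and 22 were not called. That is 42.1% called, where 61.3% of all genes tested were called in either direction, 31% higher and 30.3% lower. The values of the groups did not overlap for 14 of the 38, with 4 higher and 10 lower, against 51.8% of all genes tested. The 38 differences ranged from -1.07 to 0.33 on the log2 scale, with a median of -0.07, and the median of all genes tested was 0.04.

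Most of these differences were small. The median absolute difference was 0.13 over the proteasome genes and 0.37 over all genes tested. A difference of at least 0.5, which is 1.41-fold, was reached by 3 proteasome genes (7.89%) and by 41.3% of all genes tested, and 1 proteasome gene passed 1 (2.63%), as did 20.3% of all. For 34 of the 38 the 95% interval of the difference lay wholly within 0.5 of 0 in both directions, which held for 41.7% of all genes tested. The contrast with all genes depends on the filter. With no filter, which adds genes with values near the floor, the median absolute difference was 0.13 for all genes and for the proteasome genes. Above the 60th percentile it was 0.47 for all genes and 0.13 for the proteasome genes. By part of the complex, such narrow intervals were found for 13 of 13 core genes, 13 of 14 cap genes, 4 of 4 activator and inhibitor genes and 4 of 7 assembly factors. These counts use the deposited scale, and with each array centred on its housekeeping genes 13 of the 38 had such an interval. On other scales the number was 32 with that centring after removing each gene's mean. It was 33 with arrays centred on the median of tested genes and 34 with quantile normalization.

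**Figure D1:**
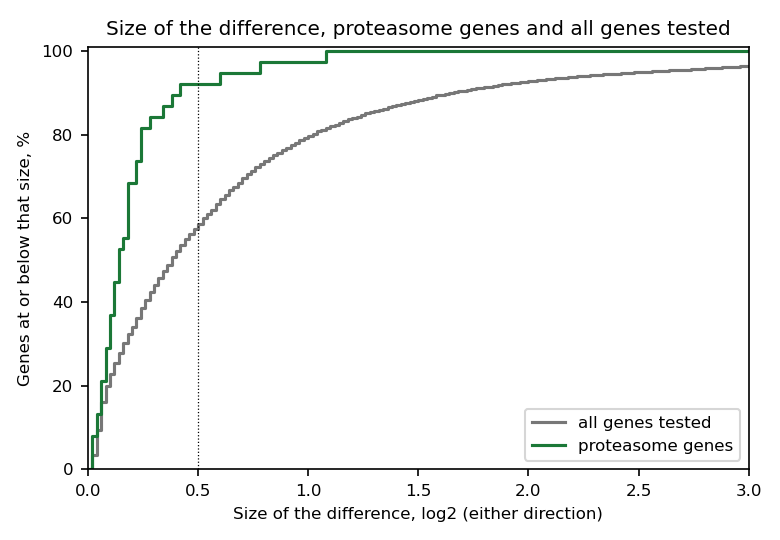
Cumulative percentage of genes (y axis) up to a given absolute difference between senescent and proliferating arrays, in log2 units (x axis), for the 38 proteasome genes and for the 12909 genes tested. The dotted line marks 0.5, which 7.89% of the proteasome genes and 41.3% of all genes tested reached or passed on the deposited scale.

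**Figure D2:**
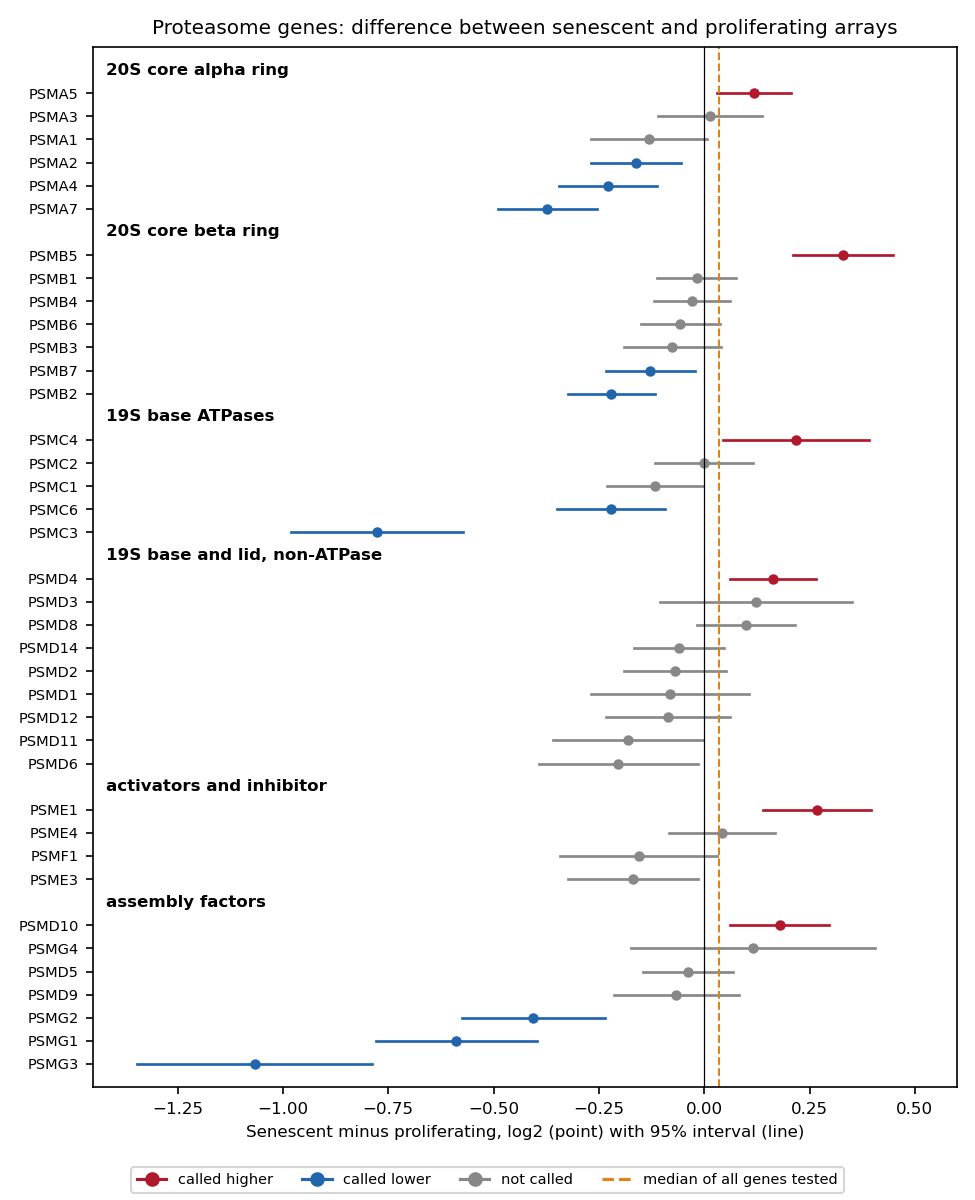
Difference of senescent minus proliferating means, in log2 units (x axis), for 38 proteasome genes ordered by role (y axis), each with its 95% interval from limma. Colours mark the 6 genes called higher, the 10 called lower and the 22 not called, and the dashed line is the median of all genes tested, 0.04. With arrays centred on housekeeping genes no gene was called higher and 31 were called lower. On that scale 77.4% of all genes tested were called, and 23.1% of those calls were higher.

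Signs depended on how arrays were scaled. Centring each array on the median of the 18 measured genes of a housekeeping list, which holds no proteasome gene, moved the median of all genes by -0.32, and then 0 members were called higher and 31 lower. This shift is set by the few genes in the middle of the list's levels on each array. The listed genes themselves were not stable: 5 of the 18 were higher and 8 lower, with differences from -1.82 to 1.01 and a median of -0.08. Centring on the same genes after removing each gene's mean, an alternative chosen after seeing the data, moved that median the other way, by 0.11, and then 8 members were higher and 5 lower. Of all genes tested, 61.3% were called on the deposited scale, 77.4% after the first of these centrings and 73.8% after the second. Of all calls, 50.6% were higher on the deposited scale, 23.1% after the first of these centrings and 65.7% after the second. Such centring moves all genes of an array alike, so the median of the proteasome genes minus that of all genes, -0.11, is the same on these scales by construction. The falls of PSMG3, PSMC3, PSMG1, PSMG2 and PSMA7 were called under every alternative that could be fitted for each gene. PSMG3, PSMC3, PSMG1 and PSMG2 each rest on 1 probe set. Averaging or choosing probe sets could therefore not change their differences. All tested probe sets of PSMC3, PSMA7, PSMD4 and PSMD10 have names that mark possible shared sequence, so for these genes the fit without such probe sets gave no value. No rise was called under every alternative, and that of PSMB5 was lost only with the first of these centrings, where its difference was 0.01 (limma, adjusted p = 0.90).

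**Figure D3:**
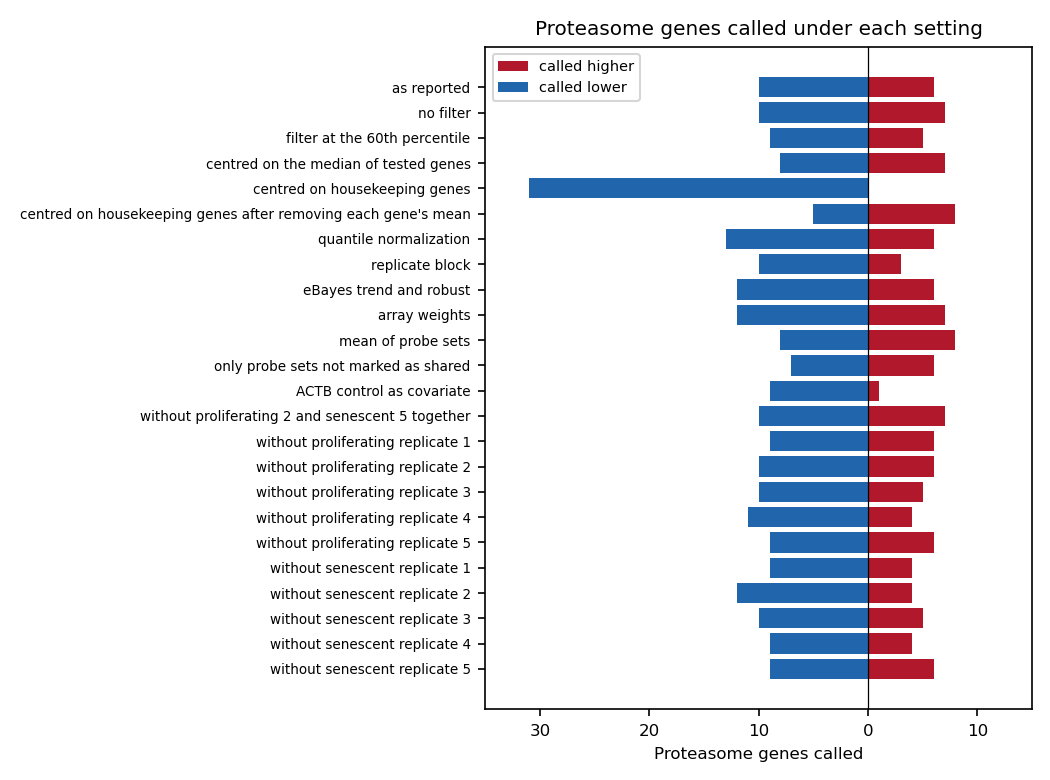
Number of proteasome genes called higher (bars to the right) and lower (bars to the left) in senescent cells under each processing setting (y axis), by the same limma threshold. The count called higher ranged from 0 with arrays centred on housekeeping genes to 8, and the count called lower from 5 to 31. The share of all genes called ranged from 39.2% with no filter to 77.4% with arrays centred on housekeeping genes.

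Promoters of the genes with the largest differences are shown first, since proteasome genes are known to share control elements. The table of RefSeq promoters (GRCh38.p14) held 34 of the 40 genes in 40 windows of 300 bases, and PSMA7, PSMB1, PSMB6, PSMB7, PSMD4 and PSMG3 were not among them. The sequences are the 250 bases before the start of transcription, 5′ to 3′ on the gene's strand. Capitals mark TGACNNNGC, the core of the antioxidant response element, and CCAAT, on either strand. PSMC3 lies at chr11:47426440-47426689 on the minus strand, PSMG1 at chr21:39183452-39183701 on the minus strand and PSMG2 at chr18:12658488-12658737 on the plus strand, and all 3 genes fell in senescent cells. PSMB5 lies at chr14:23035221-23035470 on the minus strand and PSME1 at chr14:24135944-24136193 on the plus strand, and both rose on the deposited scale. PSMB5 and PSMG2 have several windows in the table, and the ones shown were picked because they hold a marked motif. Their other windows, which start at chr14:23034851 and chr18:12702792, hold none.
PSMC3: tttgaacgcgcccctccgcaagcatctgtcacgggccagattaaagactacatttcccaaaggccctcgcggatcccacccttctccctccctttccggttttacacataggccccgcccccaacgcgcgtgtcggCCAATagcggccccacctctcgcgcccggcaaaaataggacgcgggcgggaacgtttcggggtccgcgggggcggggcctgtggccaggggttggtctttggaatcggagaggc
PSMG1: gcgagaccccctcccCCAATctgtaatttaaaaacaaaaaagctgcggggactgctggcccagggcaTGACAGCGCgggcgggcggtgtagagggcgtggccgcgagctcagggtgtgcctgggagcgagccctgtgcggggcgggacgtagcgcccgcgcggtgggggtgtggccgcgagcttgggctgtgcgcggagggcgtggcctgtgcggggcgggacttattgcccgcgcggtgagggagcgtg
PSMG2: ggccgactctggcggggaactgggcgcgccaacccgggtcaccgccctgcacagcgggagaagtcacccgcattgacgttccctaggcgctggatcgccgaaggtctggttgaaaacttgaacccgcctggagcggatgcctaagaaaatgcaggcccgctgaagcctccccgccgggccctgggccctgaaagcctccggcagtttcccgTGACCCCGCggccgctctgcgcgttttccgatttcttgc
PSMB5: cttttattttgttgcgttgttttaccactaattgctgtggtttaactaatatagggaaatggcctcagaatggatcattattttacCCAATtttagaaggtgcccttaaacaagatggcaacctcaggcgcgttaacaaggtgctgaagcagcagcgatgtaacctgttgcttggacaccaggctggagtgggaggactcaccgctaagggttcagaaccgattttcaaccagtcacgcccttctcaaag
PSME1: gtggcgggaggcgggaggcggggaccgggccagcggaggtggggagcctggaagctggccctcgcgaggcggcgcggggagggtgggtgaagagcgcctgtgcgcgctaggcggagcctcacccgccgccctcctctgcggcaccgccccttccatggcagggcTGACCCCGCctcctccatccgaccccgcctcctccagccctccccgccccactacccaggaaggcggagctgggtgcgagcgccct

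An antioxidant response element core stood in promoters of genes that fell and of genes that rose. Its first base lay 183 bases before the start in PSMG1 and 39 in PSMG2, both lower, and 86 in PSME1, which was higher. In the windows shown, PSMG2 and PSME1 carried the same letters there, TGACCCCGC, with values that moved in opposite directions on the deposited scale. CCAAT began 114 bases before the start in PSMC3, 235 in PSMG1 and 164 in PSMB5, and no marked motif overlapped another. Over all windows of 300 bases, TGACNNNGC on either strand was found in 12 of 40 member windows (30%) and in 13.3% of the 35116 windows of all genes. CCAAT was found in 16 (40%) against 34.6%, and CCGGAAG, a core bound by ETS factors, in 12 (30%) against 10.3%. Among tested genes, TGACNNNGC stood in 2 of 5 genes called higher (PSMC4 and PSME1), 3 of 7 called lower (PSMA4, PSMG1 and PSMG2) and 7 of 20 not called. A gene counted if any of its windows held the motif, and PSMA4 and PSMG2 also have windows without it. CCGGAAG stood in 0 of 5, 1 of 7 (PSMC6) and 10 of 20. A match describes these letters in these windows, and binding was not measured.

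Of the 20S core genes, 2 of 13 were higher, 5 lower and 6 not called (53.8% called, against 61.3% of all genes), with a median difference of -0.08. In the alpha ring, 3 of 6 genes fell and 1 rose. PSMA7 fell most. Its values were 13.38, 13.53, 13.40, 13.30 and 13.52 on proliferating arrays 1 to 5 and 13.06, 13.09, 13.08, 13.07 and 12.97 on senescent arrays 1 to 5. Every senescent array lay below every proliferating one, with means of 13.43 ± 0.10 (SD, n = 5) and 13.06 ± 0.05 (SD, n = 5). The fall of 0.37 (SE 0.05, 95% interval -0.49 to -0.26) is 1.29-fold, with adjusted p = 1.2e-04 (limma). A second probe set of PSMA7 gave -0.42 (SE 0.07).

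PSMA4 had values of 12.00, 11.96, 12.16, 12.02 and 12.04 on the proliferating and 11.86, 11.88, 11.79, 11.82 and 11.69 on the senescent arrays, and the groups did not overlap. It fell by 0.23 (SE 0.05, limma adjusted p = 0.0032). PSMA2 fell by 0.16 (SE 0.05, adjusted p = 0.014), again without overlap, and by 0.24 on a second probe set. These 2 falls were lost with arrays centred on housekeeping genes after removing each gene's mean, where the differences were -0.12 and -0.05, and that of PSMA2 also with arrays centred on the median of tested genes (-0.11, adjusted p = 0.061). The gene that rose, PSMA5, read 12.21, 12.19, 12.20, 12.17 and 12.28 on proliferating and 12.37, 12.37, 12.26, 12.34 and 12.31 on senescent arrays, where senescent 3 lay below proliferating 5. Its difference was 0.12 (SE 0.04, limma adjusted p = 0.024). A second probe set, below the 60th percentile on all arrays, was called higher at 0.68 (SE 0.22). The call of PSMA5 was lost above the 60th percentile (adjusted p = 0.056), without proliferating 4 or without senescent 1, 2 or 4 (0.11, 0.11, 0.11 and 0.12) and with the ACTB control in the fit (0.13, adjusted p = 0.11). Its sign turned with arrays centred on housekeeping genes, to -0.20. PSMA1 differed by -0.13 and PSMA3 by 0.01, and neither was called.

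In the beta ring, PSMB5, which carries the chymotrypsin-like active site, was the only gene of 7 called higher. Its values were 11.28, 11.16, 11.19, 11.17 and 11.27 on proliferating and 11.43, 11.50, 11.59, 11.52 and 11.67 on senescent arrays, and each senescent array was above all proliferating ones. Means were 11.21 ± 0.06 (SD, n = 5) and 11.54 ± 0.09 (SD, n = 5), a difference of 0.33 (SE 0.05, 95% interval 0.21 to 0.45), 1.26-fold, with limma adjusted p = 3.4e-04. With the ACTB control in the fit it was 0.31. PSMB7, with the trypsin-like site, read 13.04, 13.01, 13.00, 12.91 and 13.12 on proliferating and 12.86, 12.96, 12.93, 12.85 and 12.84 on senescent arrays, with overlap. It fell by 0.13 (SE 0.05, limma adjusted p = 0.038). That call was lost in 14 of 23 alternatives, among them those without proliferating 1, 2, 3 or 5 or senescent 1, 4 or 5, where the difference was between -0.10 and -0.13. PSMB6, with the caspase-like site, differed by -0.06 (adjusted p = 0.26) and was not called.

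PSMB2, a subunit of the ring without catalytic activity, had values of 12.38, 12.32, 12.24, 12.29 and 12.45 on proliferating and 12.07, 12.14, 12.13, 12.12 and 12.14 on senescent arrays. The groups did not overlap, and PSMB2 fell by 0.22 (SE 0.05, limma adjusted p = 0.0019). The call was lost when its probe sets were averaged (-0.08), on probe sets not marked as shared (-0.24, adjusted p = 0.0501) and with arrays centred on housekeeping genes after removing each gene's mean (-0.11). PSMB1, PSMB4 and PSMB3 lack an active site too, and differed by -0.02, -0.03 and -0.08 without being called. PSMB10, the immunoproteasome counterpart of PSMB7, and PSMA8, an alpha subunit of testis, stayed under the filter and were not tested with it. With no filter, which takes in both, 3 of 15 core genes were called higher, and 39.2% of all genes were called. PSMB10 read 1.79, 1.97, 1.34, 1.73 and 1.80 on proliferating and 2.60, 2.00, 2.55, 2.84 and 2.10 on senescent arrays. The senescent values were higher without overlap, but 5 of 5 proliferating and 4 of 5 senescent values lay below the 40th percentile of their array.

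Of the 19S cap genes, 2 of 14 were higher, 2 lower and 10 not called, with a median of -0.08. That is 28.6% called, against 61.3% of all genes. Of 5 ATPases of the base, 1 was higher and 2 were lower. PSMC3 read 10.59, 10.75, 10.59, 10.55 and 10.85 on proliferating and 9.97, 9.98, 9.92, 9.98 and 9.58 on senescent arrays. All senescent arrays were lower, and senescent 5 was the lowest. The means were 10.66 ± 0.13 (SD, n = 5) and 9.89 ± 0.17 (SD, n = 5), and PSMC3 fell by 0.78 (SE 0.09, 95% interval -0.98 to -0.57), 1.71-fold, with limma adjusted p = 3.1e-05. Without senescent 5 the difference was -0.70. PSMC6, another ATPase of the ring, had values of 12.67, 12.62, 12.82, 12.63 and 12.82 on proliferating and 12.59, 12.55, 12.46, 12.44 and 12.44 on senescent arrays, without overlap, and fell by 0.22 (SE 0.06, limma adjusted p = 0.0066). The call of PSMC6 was lost with arrays centred on housekeeping genes after removing each gene's mean, at -0.11.

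PSMC4, an ATPase of the same ring, went the other way on the deposited scale. It read 10.88, 10.67, 10.83, 10.81 and 11.00 on proliferating and 11.13, 11.04, 11.18, 11.08 and 10.84 on senescent arrays, with overlap at senescent 5. The difference was 0.22 (SE 0.08, limma adjusted p = 0.032). The call was lost without any 1 of proliferating 2, 3 and 4 and senescent 1, 2, 3 and 4, with differences of 0.18 to 0.22. With the ACTB control in the fit PSMC4 differed by 0.06, and with arrays centred on housekeeping genes by -0.10. PSMC1 differed by -0.12 (adjusted p = 0.073) and was called lower without proliferating 4 (-0.14). PSMC2 stood at -0.0002 on the probe set that represents it.

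Among the non-ATPase subunits of the cap, 1 of 9 was called. PSMD4, a receptor for ubiquitin chains, read 12.45, 12.53, 12.48, 12.40 and 12.62 on proliferating and 12.62, 12.67, 12.69, 12.63 and 12.67 on senescent arrays, and the groups were just apart. Its rise was 0.16 (SE 0.05, limma adjusted p = 0.0105), and 2 further probe sets gave 0.19 each, with 1 of them called. With the ACTB control in the fit PSMD4 differed by 0.19 and was not called (adjusted p = 0.052), and with arrays centred on housekeeping genes it was at -0.15. PSMD14, the deubiquitinase that removes the chain, differed by -0.06, and the large scaffold subunits PSMD1 and PSMD2 by -0.08 and -0.07, none of them called.

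Of the other lid and base subunits, PSMD6 had values of 12.09, 12.06, 12.20, 12.05 and 12.30 on proliferating and 12.04, 12.02, 11.94, 12.04 and 11.65 on senescent arrays. The groups did not overlap and the exact permutation p was 0.00794, yet the difference of -0.20 was not called (limma, adjusted p = 0.058). PSMD6 was called lower with quantile normalization (-0.21) and with eBayes trend and robust (-0.20). Senescent 5 was its lowest array, and without it the difference was -0.13. PSMD11 differed by -0.18 and was called lower without senescent 2 (-0.22), while PSMD3 differed by 0.12 and was called higher without proliferating 2 (0.22). PSMD8 and PSMD12 differed by 0.10 and -0.09, and were not called.

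Of the activators and the inhibitor, 1 of 4 was called (25%, against 61.3% of all genes), and the median was -0.06. PSME1 encodes a subunit of the PA28 cap, an interferon-induced activator that opens the core without ATP. It read 12.06, 11.96, 12.11, 11.92 and 11.97 on proliferating and 12.25, 12.32, 12.40, 12.26 and 12.15 on senescent arrays, and all senescent arrays were higher. The means were 12.01 ± 0.08 (SD, n = 5) and 12.27 ± 0.09 (SD, n = 5), a rise of 0.27 (SE 0.06, 95% interval 0.14 to 0.40), 1.20-fold, with limma adjusted p = 0.0021. The call was lost with the ACTB control in the fit (0.16, adjusted p = 0.12), and with arrays centred on housekeeping genes the difference was -0.05. PSME3, the nuclear member of the PA28 family, differed by -0.17 (limma adjusted p = 0.056, exact permutation p = 0.0159) and was not called. It was called lower without proliferating 3 (-0.20) or without senescent 2 (-0.19). PSME4, the activator PA200, differed by 0.04, and PSMF1, an inhibitor of the core also known as PI31, by -0.16. Neither was called, though without proliferating 2 PSMF1 was called lower, at -0.21.

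The largest difference of any member was found among the assembly factors. Of 7 genes, 3 fell, 1 rose and 3 were not called, with a median of -0.07. That is 57.1% called, against 61.3% of all genes. The 3 that fell, PSMG3, PSMG1 and PSMG2, encode chaperones that build the alpha ring of the core. PSMG3 works with PSMG4 as a pair, and its values were 8.54, 8.92, 8.77, 8.41 and 8.65 on proliferating and 7.66, 7.76, 7.62, 7.71 and 7.20 on senescent arrays. No senescent array reached any proliferating one, and senescent 5 was the lowest. Means were 8.66 ± 0.20 (SD, n = 5) and 7.59 ± 0.22 (SD, n = 5), and PSMG3 fell by 1.07 (SE 0.12, 95% interval -1.35 to -0.79), 2.09-fold, with limma adjusted p = 3.0e-05. Without senescent 5 its difference was -0.97.

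PSMG1 and PSMG2 form the other pair of core chaperones. PSMG1 read 10.47, 10.35, 10.44, 10.28 and 10.63 on proliferating and 9.73, 9.76, 10.01, 10.00 and 9.72 on senescent arrays. The groups did not overlap, with means of 10.43 ± 0.13 (SD, n = 5) and 9.85 ± 0.15 (SD, n = 5), and PSMG1 fell by 0.59 (SE 0.09, 95% interval -0.78 to -0.40), 1.50-fold, with limma adjusted p = 1.5e-04. PSMG2 read 9.76, 9.71, 9.96, 9.82 and 9.83 on proliferating and 9.19, 9.48, 9.59, 9.37 and 9.43 on senescent arrays, again apart. Its means were 9.81 ± 0.09 (SD, n = 5) and 9.41 ± 0.15 (SD, n = 5), and it fell by 0.41 (SE 0.08, 95% interval -0.58 to -0.24), 1.33-fold, with limma adjusted p = 8.9e-04. PSMG4, the partner of PSMG3, differed by 0.12 (SE 0.13, limma adjusted p = 0.45) and was not called.

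The chaperones of the cap base gave another picture. PSMD10, also called gankyrin, had values of 10.80, 10.89, 10.92, 10.99 and 10.95 on proliferating and 11.13, 11.12, 11.18, 11.02 and 11.00 on senescent arrays, which were just apart. It rose by 0.18 (SE 0.05, limma adjusted p = 0.013). The call was lost with the ACTB control in the fit (0.14, adjusted p = 0.20), and with arrays centred on housekeeping genes the difference was -0.14. PSMD5 and PSMD9, which also chaperone the base, differed by -0.04 and -0.07 and were not called.

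**Figure D4:**
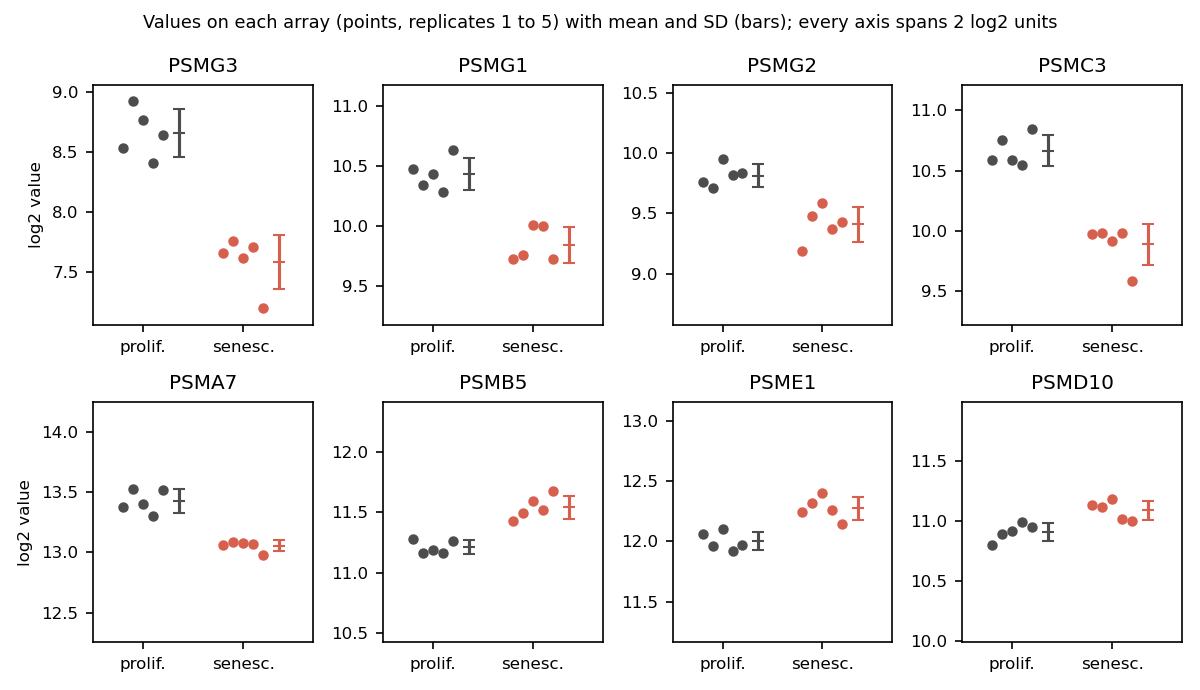
Deposited log2 value on each of 5 proliferating and 5 senescent arrays (points), with the mean and SD, for PSMG3, PSMG1, PSMG2, PSMC3, PSMA7, PSMB5, PSME1 and PSMD10, on axes that each span 2 log2 units. The groups do not overlap for any of the 8 genes, and the senescent arrays are lower for the first 5 and higher for the last 3, of which PSME1 and PSMD10 changed sign with arrays centred on housekeeping genes.

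Probe sets of a gene did not always move together. Of 72 tested member probe sets, 25 were called (34.7%), 13 higher and 12 lower. Of all tested probe sets 53% were called, 26.9% higher and 26.2% lower. For 22 genes with several tested probe sets, 23 of the 34 probe sets beside the one that represents the gene had its sign. No gene had called probe sets of opposite direction. For 4 genes the representing probe set was not called while another was called higher.

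PSMC2 had 2 such probe sets. Its representing probe set read 13.54, 13.41, 13.59, 13.48 and 13.60 on proliferating and 13.56, 13.55, 13.59, 13.50 and 13.41 on senescent arrays, which overlapped throughout. A second probe set read 7.55, 7.65, 7.74, 7.76 and 7.64 and 8.41, 8.40, 8.46, 8.18 and 8.20, where every senescent array was higher, with a difference of 0.66 (SE 0.07, limma adjusted p over probe sets = 2.0e-05). Yet another gave 0.70 (SE 0.15). PSMD9 differed by -0.07 on its representing probe set, while another read 7.74, 7.53, 7.68, 7.79 and 7.65 and 8.40, 8.89, 8.85, 8.38 and 7.85. The groups were apart there, with a wide spread among senescent arrays and a difference of 0.80 (SE 0.18). PSMD12 gave 0.31 (SE 0.06) and PSMD11 0.29 (SE 0.09) on a further probe set, against -0.09 and -0.18 on the representing ones. Where in the transcript these probe sets lie was not analysed here.

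**Figure D5:**
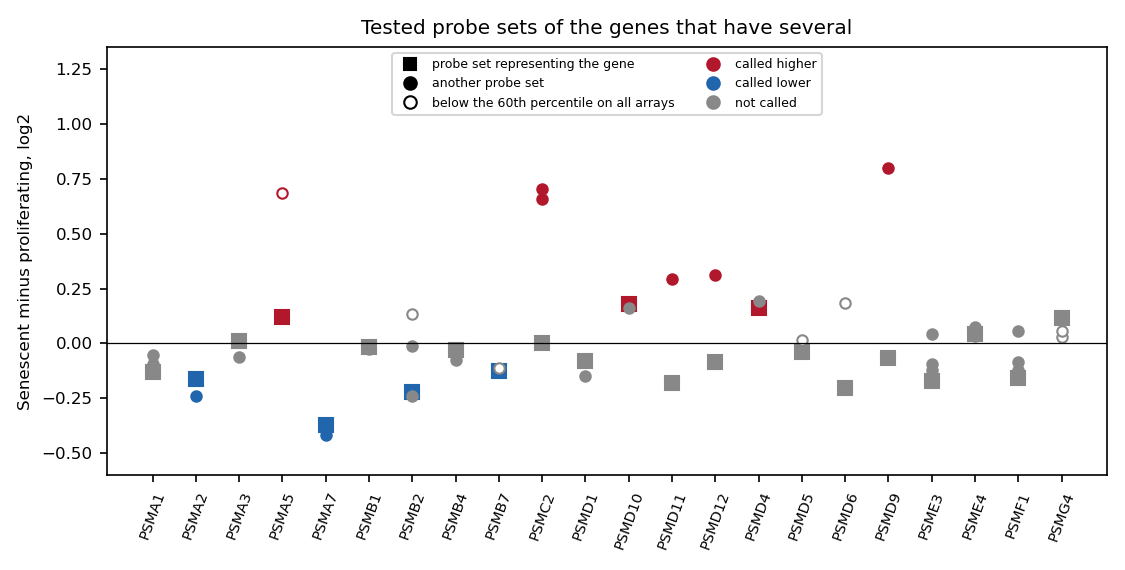
Difference of senescent minus proliferating means, in log2 units (y axis), for every tested probe set of the 22 proteasome genes that have several (x axis). Squares are the probe sets that represent the genes, circles the others and open circles those below the 60th percentile on all arrays. Further probe sets of PSMC2 lie at 0.66 and 0.70 and one of PSMD9 at 0.80, above their squares near 0.

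Genes that work with the proteasome but carry other symbols were read from lists of known roles. Since centring on housekeeping genes lowers every difference by the same amount, with a shift of -0.32, rises smaller than that turn negative on that scale. Of 13 partner proteins, 4 were higher, 2 lower and 7 not called, where 31% of all genes tested were higher and 30.3% lower. UCHL5, a deubiquitinase bound to the cap, had means of 10.03 ± 0.10 (SD, n = 5) and 8.81 ± 0.09 (SD, n = 5) and fell by 1.23 (SE 0.06, limma adjusted p = 4.6e-08), more than any member. Its docking site on the cap, ADRM1, rose by 0.28 (SE 0.10, adjusted p = 0.038), with overlap between the groups. ZFAND5, a stimulator of the proteasome, rose by 0.81 (SE 0.06, limma adjusted p = 1.3e-06). SEM1, a small subunit of the lid, fell by 0.34 and lost that call with the ACTB control in the fit (-0.29, adjusted p = 0.12). POMP, which matures the core after the PSMG chaperones have acted, differed by 0.03, and the cap deubiquitinase USP14 by 0.08, and neither was called.

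A list drawn up for the NRF1 pathway, which controls proteasome genes, had 7 of 10 genes tested, with 4 higher, 2 lower and 1 not called. Among all genes tested 31% were higher and 30.3% lower. The list also holds NFE2L2 (0.39, higher), KEAP1 (-0.18, not called) and BACH1 (-0.28, lower). Its counts therefore do not cover NRF1 and its partners alone. NFE2L1 itself went from 10.82 ± 0.05 (SD, n = 5) to 11.26 ± 0.09 (SD, n = 5), a rise of 0.44 (SE 0.05, limma adjusted p = 2.5e-05), which was 0.12 (adjusted p = 0.15) with arrays centred on housekeeping genes. Its small Maf partners MAFG and MAFF rose by 1.20 and 0.80. NGLY1, the enzyme that frees NRF1 from its sugar chains, fell by 0.17 (SE 0.06, limma adjusted p = 0.038), with overlap.

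Upstream of the proteasome, 2 of 3 tested genes for ubiquitin and its activating enzymes were higher and 1 lower (31% and 30.3% of all genes). UBB, a ubiquitin precursor, rose by 0.23 and UBA1, the main activating enzyme, by 0.14 (limma adjusted p = 6.8e-04 and 0.031). Both turned sign with arrays centred on housekeeping genes, at -0.09 and -0.17. The call of UBA1 was also lost when its probe sets were averaged (0.32, adjusted p = 0.11) and without any 1 of proliferating 3, 4 and 5 and senescent 2, 3 and 4 (0.11 to 0.14). UBA6, the second activating enzyme, fell by 0.58 (SE 0.06, limma adjusted p = 8.5e-06). Of 13 tested shuttle and segregase genes, 5 rose, 3 fell and 5 were not called, where 61.3% of all genes were called. SQSTM1, a ubiquitin receptor of autophagy, rose by 1.54 (SE 0.08), TOLLIP by 1.10 (SE 0.09), and FAF1, a cofactor of the segregase VCP, fell by 0.97 (SE 0.08). VCP differed by 0.19 (limma adjusted p = 0.11) and was not called.

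Of the genes that induce immunoproteasome subunits and PA28, 4 of 6 tested rose, where 31% of all genes tested did. JAK1 at 0.13 and JAK2 at -0.15 were not called. IRF1, a transcription factor of the interferon response, went from 4.71 ± 0.25 (SD, n = 5) to 8.03 ± 0.13 (SD, n = 5), a rise of 3.32 (SE 0.12, limma adjusted p = 4.1e-09). IFNGR1, a chain of the interferon gamma receptor, rose by 1.08, but on probe sets not marked as shared the difference was 0.24 and was not called (limma, adjusted p = 0.14). NLRC5 rose by 0.64, and this call was lost with the ACTB control in the fit (0.08), with no filter (adjusted p = 0.052), with arrays centred on housekeeping genes (0.32) and without senescent 2 (0.56) or senescent 3 (0.63). Beside these, PSME1 differed by 0.27 and PSMB10 stayed under the filter.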

How the data were processed

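The values analysed are the log2 values that the authors deposited, covering 54675 probe sets. Partek and GCRMA appear in the submitters' processing notes without versions or roles, and the log2 base was read from the values. Genes were named from the platform annotation, and probe sets entered the test when at least 5 of 10 arrays were above the 40th percentile of that array. The probe set with the highest mean stood for a gene, whose difference was tested (two-sided, limma 3.58.1 with lmFit and eBayes, R 4.3.3) over 12909 genes, adjusted by Benjamini-Hochberg and called under 0.05. Rose, fell and called mean past that threshold. Exact permutation tests enumerated all assignments of the arrays. In each role list, the 2 called members with the largest rise and the 2 with the largest fall are given in full, and up to 3 called genes per partner list, while the remaining ones named were chosen after their values were seen. Members and lists were chosen with earlier results of these data known. Scripts were tested on simulated data. Detection calls and scan dates were not used here. Alternatives were other filters, scalings, variance models, probe set choices, a replicate block, the ACTB control (3′ minus 5′) in the fit and leaving arrays out. Figures used matplotlib 3.10.9.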

Additional observations from a re-analysis of the deposited data

Results flagged for a closer look

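In 76 groups of 5 arrays, 5 had an array far from the other 4 by Dixon's criterion, and chance gives about 3.8. Senescent 5 was low for 4 of them: for PSMC3 at 9.58, where the nearest senescent array was 9.92, for PSMG3 at 7.20 against 7.62, for PSMA7 at 12.97 against 13.06 and for PSMD6 at 11.65 against 11.94. Without it the differences were -0.70, -0.97, -0.35 and -0.13, and only PSMD6 was not called, as with all arrays. Proliferating 1 was low for PSMD5, at 11.05 against 11.17.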

How the results depend on the processing

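The number of members called higher (6 as reported) was 0 with arrays centred on housekeeping genes, 3 with the replicate block, 1 with the ACTB control in the fit and 13 among probe sets, and 4 to 6 when arrays were left out in turn. The number called lower (10) was 31 with arrays centred on housekeeping genes, 5 with that centring after removing each gene's mean, and 9 to 12 when arrays were left out in turn. Of all genes tested, 77.4% and 73.8% were called under those centrings, 59.3% with the replicate block and 49.4% with the ACTB control. Core genes called higher (2) were 3 with no filter, 1 above the 60th percentile and 0 centred on housekeeping genes. They were 1 with the replicate block, 1 with the ACTB control and 1 to 2 without single arrays. Core genes called lower (5) were 3 centred on the median of tested genes, 12 and 1 under the 2 housekeeping centrings, and 3 with the mean of probe sets or without shared ones. Cap genes called higher (2) were 0 centred on housekeeping genes, 1 with the replicate block, 0 with the ACTB control, 7 among probe sets and 1 to 2 without single arrays. Cap genes called lower (2) were 11 and 1 under the 2 housekeeping centrings, 4 with quantile normalization or with eBayes trend and robust, and 1 without shared probe sets. Activator genes called higher (1) were 0 and 2 under the housekeeping centrings and 0 with the ACTB control. Activator genes called lower (0) were 3 centred on housekeeping genes, 1 each with quantile normalization, the replicate block, array weights and without proliferating 2 and senescent 5, and 0 to 1 without single arrays. Assembly genes called higher (1) were 0 centred on housekeeping genes, with the replicate block, without shared probe sets and with the ACTB control, and 2 with the mean of probe sets and among probe sets, and those called lower (3) were 5 centred on housekeeping genes.

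Centring on housekeeping genes reversed PSMC4 to -0.10, PSMD4 to -0.15, PSMD8 to -0.22, PSMA5 to -0.20, PSMA3 to -0.30, PSME1 to -0.049, PSME4 to -0.27, PSMD10 to -0.14, UBB to -0.091 and UBA1 to -0.17. The mean of probe sets reversed PSMC2 to 0.45 and PSMD9 to 0.37, and unshared probe sets PSMC2 to 0.66 and PSMD11 to 0.29. The first group of sign changes follows from the shift of -0.32 that this centring gives every gene. The second follows from further probe sets of the same genes. The shift comes from the genes in the middle of the list's levels. By group means these were EMC7 (12.49) and SNRPD3 (12.03) in proliferating and GAPDH (12.81) and REEP5 (12.36) in senescent cells. Centring on the same list after removing each gene's mean moved all differences the other way, by 0.11. Why the levels of those genes and the further probe sets differ was not tested.

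Replicate numbers shared between the groups did not pair the arrays: deviations of same-numbered arrays correlated at 0.01, 0.03, 0.10, 0.02 and -0.04, and 1 of 5 proliferating arrays correlated best with its own number. With the replicate block, 3 members were called higher and 10 lower. PSMC4, PSMA5, PSMB7, PSMD10, UBA1 and NLRC5 lost their calls, and PSME3 gained 1 (adjusted p = 0.0499). The number of arrays and the floor of the scale limit what can be seen, above all for PSMB10 and PSMA8.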
